A study of Saccharomyces cerevisiae with 16 samples.

Results

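H3K4me3 peaks that lie inside the body of a gene, far from any gene start, were examined in the budding yeast Saccharomyces cerevisiae. A peak was counted as a gene-body peak when its summit lay inside a protein-coding gene of the nuclear chromosomes and more than 1000 bp from the start of every annotated gene of any type. This held for 273 of the 30753 peaks in the 8 H3K4me3 lists, and they lay in 70 genes, called host genes here. The rule used only the position of the summit, not the height of the peak.

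Trimethylation of histone H3 at lysine 4 is laid down by Set1 and its partners in the COMPASS complex, which travels with RNA polymerase II early in transcription. The mark therefore lies mostly over the first nucleosomes of transcribed genes, while dimethylation and monomethylation follow further into the gene. A peak far inside an annotated gene is thus away from the usual place of the mark. Annotated starts are not always the starts in use, and genes can also be transcribed from within, or from their end on the other strand.

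All strains were BY4741 with a synthetic human HPRT1 locus (synHPRT1) or with the same sequence written backwards (synHPRT1R). The synthetic DNA sat on its own artificial chromosome (YAC) or was integrated on chromosome XI. There were 4 groups of 2 H3K4me3 libraries each: HPRT1 YAC, HPRT1 integrated, HPRT1R YAC and HPRT1R integrated; the 8 IgG control samples were not analysed here. The YAC strains were grown in SC-Leu, which lacks leucine, whereas YPD, a rich medium, was used for the integrated strains, both at 30 °C, so that configuration and medium cannot be told apart. The chromatin was cut out with an antibody-directed nuclease (CUT&RUN), although the sample titles name ChIP. Nothing in the labels says that replicates were separate cultures, so that p-values measure a spread that may be technical.

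The lists held 3377 to 3963 native peaks, meaning peaks on the 16 nuclear chromosomes. The depth at a summit could be recovered from the authors' fold and p-value: the caller expected 76.2 to 98.9 reads over most of the genome, and gene-body summits held 107 to 378 reads. A pileup of 142 reads, the median of gene-body summits, has a counting error of 8.39% (1 SD), and 107 reads one of 9.67%; these cover counting error only. HPRT1R YAC replicate 1 stood apart, with the fewest native peaks and the fewest gene-body peaks. For HPRT1 YAC replicate 2 one label entry names the HPRT1R YAC, while its title and genotype name HPRT1, and it was kept as HPRT1. The effect of leaving each of them out stands beside the group comparisons.

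Gene-body peaks were rare in every library. The HPRT1 YAC libraries had 47 and 31, the HPRT1 integrated libraries 32 and 29, the HPRT1R YAC libraries 16 and 31, and the HPRT1R integrated libraries 43 and 44. HPRT1R YAC replicate 1 was the lowest and HPRT1 YAC replicate 1 the highest, although they belong to different groups, and the members of the HPRT1R YAC pair lay further apart than those of either integrated pair. As a share of native summits this was 0.898% ± 0.236 (SD, n = 8), from 0.474% (95% Clopper-Pearson interval 0.271 to 0.768) in HPRT1R YAC replicate 1 to 1.19% (0.873 to 1.57) in HPRT1 YAC replicate 1. The bases where such a summit could lie, called eligible bases, made up 24.6% of the nuclear chromosomes (2967795 of 12053405 bp).

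The density of summits fell steeply with the distance from the nearest gene start and then levelled off. Inside coding genes there were 13.5 ± 1.09 summits per 10 kb (SD, n = 8) in the first 250 bp from a start, 3.02 ± 0.941 from 250 to 500 bp, 0.739 ± 0.288 from 500 to 750 bp and 0.226 ± 0.0460 from 750 to 1000 bp. Past the limit the density was 0.125 ± 0.0438 from 1000 to 1500 bp, 0.106 ± 0.0262 from 1500 to 2000 bp and 0.105 ± 0.0399 beyond 2000 bp. These last 3 values differ by less than the spread between libraries. Most of the 65 summits beyond 2000 bp lay in repeated frames near chromosome ends, namely YRF1 genes, YIL177C and YJL225C, described below. The density without these frames was not computed, so the level part of the curve may not hold for other genes. Over all eligible bases the density was 28.4 times lower than over all native bases (log2 ratio −4.83 ± 0.43, SD, n = 8), lower in 8 of 8 libraries. An exact two-sided sign-flip test over the 8 libraries gave p = 0.00781, the smallest it can give, and 0.00977 after Benjamini-Hochberg adjustment over 5 such tests. Eligible bases were set by their distance from starts, and all native bases include the start regions. The low density thus restates the fall with distance, and this p is no separate evidence.

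**Figure D1:**
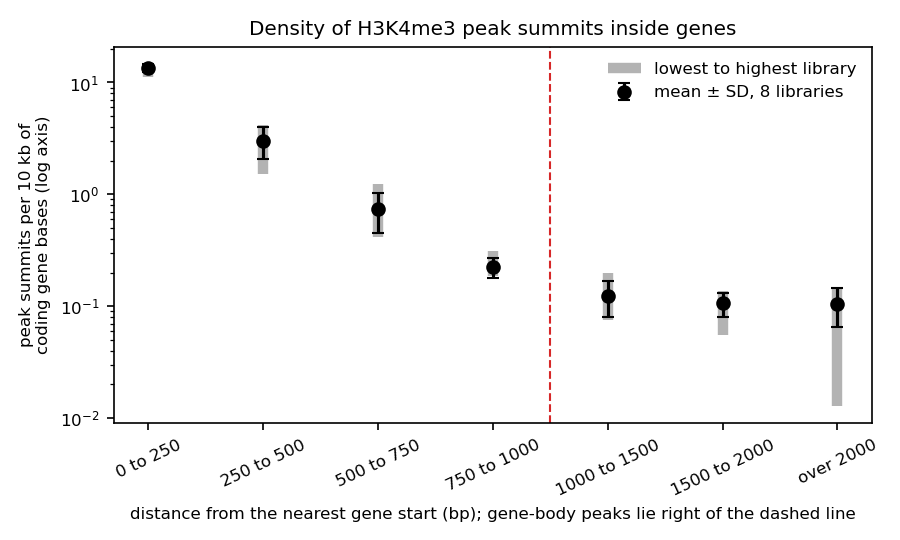
Peak summits per 10 kb of coding gene bases (log axis) by distance from the nearest gene start; points and error bars are the mean and SD of 8 libraries, gray bars run from the lowest to the highest library. The density falls from 13.5 in the first 250 bp to 0.125 just past 1000 bp and is 0.105 beyond 2000 bp. Most summits beyond 2000 bp lie in repeated frames near chromosome ends.

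Gene-body peaks were also lower and narrower than the other native peaks of their library. The fold, which is the authors' own value for a peak's pileup over the caller's expectation, had a median of 1.70 ± 0.0701 for gene-body peaks and 2.14 ± 0.157 for the other native peaks (SD of library medians, n = 8). The within-library log2 ratio of these medians was −0.33 ± 0.084, lower in 8 of 8 libraries (exact sign-flip test, p = 0.00781, adjusted 0.00977). The median width was 432 ± 60.6 bp against 622 ± 51.2 bp, a log2 ratio of −0.53 ± 0.24, again lower in 8 of 8 libraries (exact sign-flip test, p = 0.00781, adjusted 0.00977). As many loci recur in the libraries, neither p measures a spread between loci. Of the gene-body peaks, 59 (21.6%) had a fold above 2, against 58.8% of the others. The tallest, at 3.12, lay in HPF1 in HPRT1R integrated replicate 2.

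**Figure D2:**
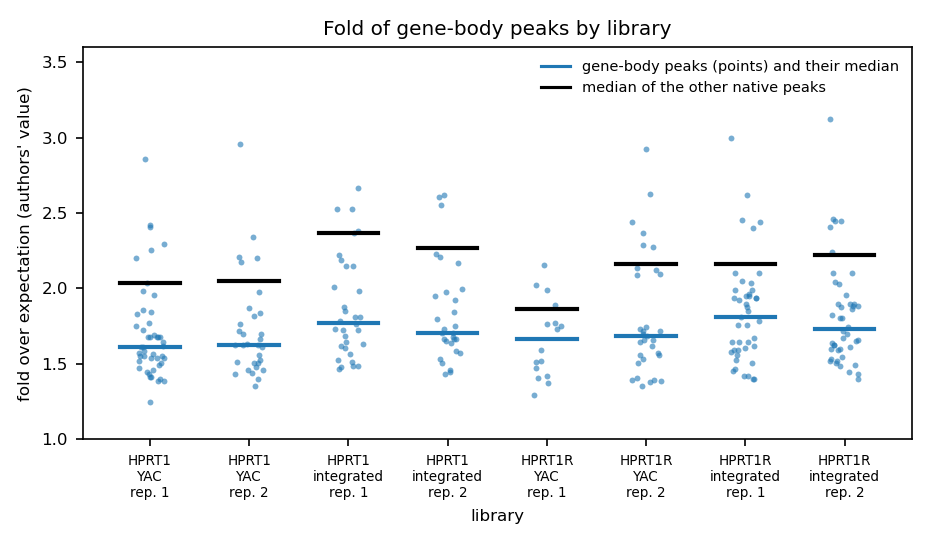
Fold of every gene-body peak (points, authors' value) in each of the 8 libraries, with the median of the gene-body peaks (blue line) and of the other native peaks (black line). The blue line, at 1.61 to 1.81, lies under the black line, at 1.86 to 2.37, in every library.

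The replicate of the same group had an overlapping peak for 81.0% ± 16.2 of gene-body peaks and for 94.0% ± 2.36 of the other native peaks (SD, n = 8). The difference of −13.0 percentage points ± 15.5 was negative in 6 of 8 libraries (exact sign-flip test, p = 0.0469, also after adjustment). The range was wide: 16 of the 16 gene-body peaks of HPRT1R YAC replicate 1 had a partner in replicate 2 (95% Clopper-Pearson interval 79.4 to 100%), while only 15 of the 31 of replicate 2 had one in replicate 1 (48.4%, interval 30.2 to 66.9). Both values of a pair come from the same 2 lists, and without any one pair the adjusted p lay between 0.0625 and 0.188, so the call does not hold. Within the bottom tertile of each library's native folds the difference was −10.1 points (exact sign-flip test, p = 0.242).

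Most gene-body peaks lay wholly inside their host. This held for 247 of 273 peaks (90.5%), while 25 (9.16%) ran past the end of the gene. A further overlap was rare: 13 peaks (4.76%) were so wide that they reached the window from 200 bp before to 500 bp after the host's own start, in MFT1, MNN4, PUT4, QDR1, YBL005W-B and YMR050C. Summits lay 1004 to 6216 bp from the host's start, with a median of 1795 bp, and 104 (38.1%) were more than 2000 bp away. Within 500 bp of the host's end lay 105 summits (38.5%). Over libraries the share near the end was 38.8% ± 4.31 (SD, n = 8), against 24.4% of the eligible bases, higher in 8 of 8 libraries (exact sign-flip test, p = 0.00781, also adjusted over the 2 comparisons that were added after the data had been seen). Many of the same loci recur in the libraries, so p does not measure a spread between loci.

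**Figure D3:**
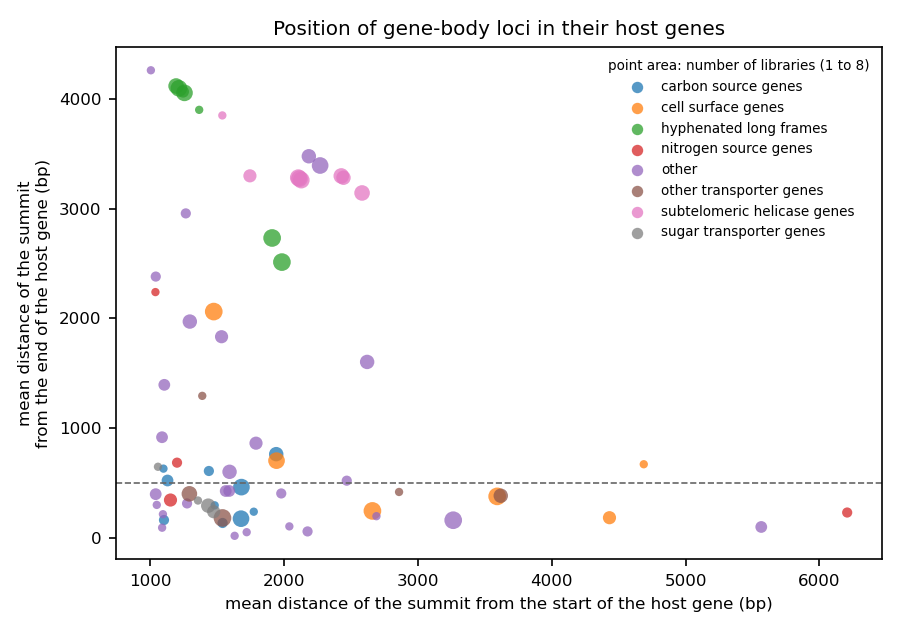
Mean distance of the summit from the start of the host gene (x, bp) and from its end (y, bp) for 72 gene-body loci, colored by role group, with point area for the number of libraries. The points under the dashed line, within 500 bp of the gene end, include loci in DTR1, HPF1, JEN1 and FLO1, and the hyphenated long frames and YRF1 genes lie high above it.

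Host genes were seldom marked at their own start. A gene was called marked when a peak overlapped that same window around its start. In a library, 30.8% ± 9.84 of host genes were marked, against 79.1% ± 2.02 of the other eligible genes (SD, n = 8), a gene being eligible when it holds at least 1 eligible base. The difference of −48.3 percentage points ± 10.5 was negative in 8 of 8 libraries (exact sign-flip test, p = 0.00781, adjusted 0.00977). Many of the same hosts recur in the libraries, so p does not measure a spread between genes. HPRT1R YAC replicate 1 was lowest, with 2 of 16 hosts marked (12.5%, 95% Clopper-Pearson interval 1.55 to 38.3), and HPRT1R integrated replicate 1 highest, with 18 of 42 (42.9%, interval 27.7 to 59.0). Over the 8 libraries together, 32 of the 70 hosts (45.7%) were marked at the start in none and 15 (21.4%) in all. Among the 2711 other eligible genes 347 (12.8%) were marked in none and 1866 (68.8%) in all. Hosts were longer, with a median of 2692.5 bp against 1932 bp, and the part of length in the difference was not tested. With the limit at 500 bp from every start in place of 1000 bp, which gives 472 hosts, the difference was −3.69 points (exact sign-flip test, p = 0.148).

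**Figure D4:**
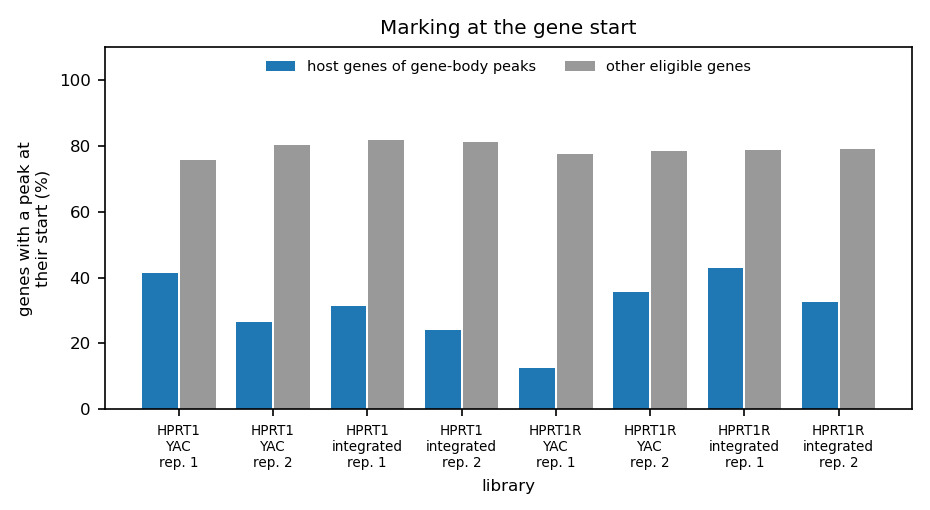
Percent of genes with a peak at their start in each library, for host genes of gene-body peaks in that library (blue) and all other eligible genes (gray); each bar is 1 library. Blue bars run from 12.5 to 42.9% and gray bars from 75.8 to 81.9%.

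The 273 peaks came from 72 loci in 70 genes, which is 2.52% of the 2781 eligible genes. A locus joins gene-body peaks of different libraries whose summits follow each other by no more than 250 bp. Of the loci, 19 held a gene-body peak in 1 library, 11 in 2, 8 in 3, 6 in 4, 8 in 5, 4 in 6, 9 in 7 and 7 in all 8. When any native peak over the locus was counted, whatever the place of its summit, 19 loci were covered in all 8 libraries and 11 in 1. By that count 6.08% of the eligible genes had a peak over their eligible bases in at least 1 library and 2.05% in all 8. Examples of the 12 loci added this way lie in ICL1, ENA1, QDR1 and CYB2. The 7 loci in all 8 libraries lay in 7 genes, 0.252% of the eligible genes: HPF1, YGR109W-B, YIL082W-A, MNN4, DTR1, YMR317W and FLO9. Of these 7 hosts, 5 were marked at the start in none of the libraries and 0 in all.

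**Figure D5:**
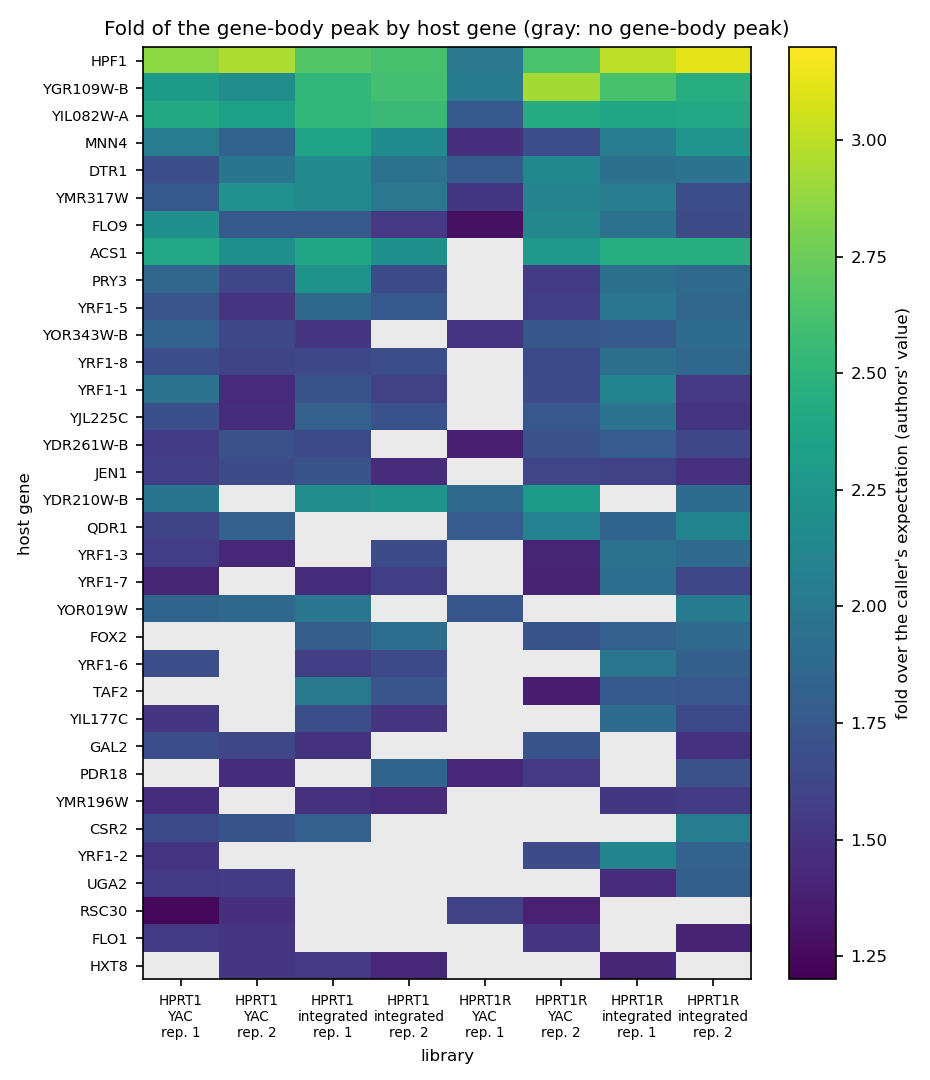
Fold of the gene-body peak (color, authors' value, the highest where a gene has more than 1) for the host genes with such a peak in at least 4 libraries (rows) in each of the 8 libraries (columns); gray marks no gene-body peak. HPF1 is at the top with 1.99 to 3.12, and the column of HPRT1R YAC replicate 1 is gray for ACS1 and all YRF1 genes.

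Genes of the cell surface gave 36 of the gene-body peaks, in 6 hosts. This grouping and those below were made from the names of the hosts after their values had been seen, and they are descriptions. Eligible genes of each kind were not counted, so no group can be set against the 2.52% of all eligible genes that are hosts. HPF1 (YOL155C, chromosome XV, 28703 to 31606, strand C) encodes a heavily mannosylated wall protein. Its fold was 2.86 and 2.96 for HPRT1 YAC, 2.67 and 2.62 for HPRT1 integrated, 1.99 and 2.63 for HPRT1R YAC, and 3.0 and 3.12 for HPRT1R integrated. HPRT1R YAC replicate 1 was low, and the other 7 lay close together. The mean was 2.73 ± 0.351 (SD, n = 8), on average at the 78.3rd percentile of the native folds of the same library. All 8 summits lay between positions 28940 and 28961, 21 bp apart, and 2645 to 2666 bp from the start of this 2904 bp gene. No library had a peak at the start of HPF1.

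FLO9 (YAL063C, chromosome I, 24000 to 27968, strand C) encodes a lectin that lets cells stick to each other in flocs. Its fold was 2.2 and 1.76 for HPRT1 YAC, 1.76 and 1.53 for HPRT1 integrated, 1.29 and 2.12 for HPRT1R YAC, and 1.95 and 1.66 for HPRT1R integrated. The mean was 1.79 ± 0.301 (SD, n = 8), and the HPRT1R YAC pair alone held the lowest value and one of the highest. Its summits were spread over 368 bp, 3405 to 3773 bp from the start of a 3969 bp gene. FLO1 (YAR050W), a flocculation gene of the same family at the other arm of chromosome I, had gene-body peaks in 4 libraries, 4357 to 4544 bp from its start, with folds of 1.40 to 1.54. FLO genes share repeated sequence, reads of one can be placed in another, and their values are uncertain for that reason.

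MNN4 (YKL201C, chromosome XI, 63930 to 67466, strand C), which acts in adding mannosylphosphate to wall glycans, had folds of 2.04, 1.84, 2.37, 2.17, 1.47, 1.68, 2.05 and 2.24 in the order used above. The mean was 1.98 ± 0.300 (SD, n = 8), and the HPRT1R YAC pair was the lowest. The start of MNN4 was marked too, in 7 libraries, and its gene-body summits lay 1373 to 1545 bp from that start. Of the other hosts in all 8 libraries, DTR1 was marked at its start in 1 and the rest in none. PRY3 (YJL078C), a sterol-binding protein of the wall, had a gene-body peak in 7 libraries with a mean fold of 1.82 ± 0.228 (SD, n = 7), all within 50 bp of each other at 1923 to 1973 bp from its start. FKS3, a member of the glucan synthase family, had 1 peak, of fold 1.45.

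Frames with hyphenated systematic names of at least 4000 bp gave 40 peaks in 7 hosts. The gene table used here does not annotate their products, so that no role is given to them. YGR109W-B (chromosome VII, 707610 to 712254, strand W) had folds of 2.29 and 2.18 for HPRT1 YAC, 2.53 and 2.61 for HPRT1 integrated, 2.02 and 2.93 for HPRT1R YAC, and 2.62 and 2.44 for HPRT1R integrated. The HPRT1R YAC pair held both the lowest and the highest value, and the mean was 2.45 ± 0.285 (SD, n = 8). YIL082W-A (chromosome IX, 205635 to 210132, strand W) was more even, at 2.35 ± 0.253 (SD, n = 8), with 1.75 in HPRT1R YAC replicate 1 and 2.34 to 2.55 in the other 7. Neither was marked at its annotated start in any library, and their summits lay 1864 to 1945 bp and 1969 to 2021 bp from it.

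A length of 5314 bp is shared by 10 eligible frames, and 4 of them held 23 gene-body peaks. These were YOR343W-B, with a gene-body peak in 7 libraries, YDR261W-B in 7, YDR210W-B in 6 and YOR192C-B in 3. The distance from the start was alike in all 4, at 1173 to 1342 bp with a median of 1204 bp. Mean folds were 1.70 ± 0.150 (SD, n = 7), 1.62 ± 0.133 (SD, n = 7), 2.08 ± 0.176 (SD, n = 6) and 1.66 ± 0.130 (SD, n = 3). Of the 24 frames of 5269 bp, 2 had a gene-body peak in 1 library each, YBL005W-B (fold 2.26) and YMR050C (fold 2.15), and both peaks were wide enough to reach the start. Frames of equal length can be near-identical copies, and how reads with several possible places were handled is not given in the sources used here, so the copies are not independent.

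The YRF1 genes, which encode helicases in the Y' elements next to the telomeres, gave 43 peaks in 7 of the 8 annotated copies; YRF1-4 had none. Counts per library were 7 and 4 in HPRT1 YAC, 5 and 6 in HPRT1 integrated, 0 and 6 in HPRT1R YAC, and 8 and 7 in HPRT1R integrated. YRF1-1, YRF1-5 and YRF1-8, all 5391 bp long, had their summits at a median of 2130 bp from the start, and YRF1-3, YRF1-6 and YRF1-7, all 5728 bp long, at 2455 bp. The folds of the YRF1 genes were low, at 1.39 to 2.1 with a median of 1.66. The unnamed frames YIL177C and YJL225C, both of 5665 bp and at the end of a chromosome, had theirs at a median of 2166 bp. Together, 11 eligible frames of at least 4000 bp ended within 10 kb of a chromosome end, 10 of them held a gene-body peak, and they gave 58 peaks, 21.2% of all. HPRT1R YAC replicate 1 had no peak at all over the eligible bases of these frames, while the other 7 libraries had gene-body peaks there, 6 to 11 each. Copies of Y' elements are near-identical, and the values of single copies are uncertain.

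Gene-body summits were then counted near the chromosome ends, with these frames included. Within 30 kb of an end lay 38.6% ± 6.63 of gene-body summits, 2.92% ± 0.145 of the other native summits and 6.5% of the eligible bases (SD, n = 8). The difference between the kinds of peak, 35.7 percentage points, was positive in 8 of 8 libraries (exact sign-flip test, p = 0.00781, also adjusted over the 2 added comparisons). This comparison was added after the data had been seen, and the same loci recur in the libraries, so p does not measure a spread between loci. Of the 107 gene-body summits within 30 kb of an end, 58 lay in the frames described above. The difference without these frames was not computed. HPF1, FLO9, FLO1, JEN1, HXT8, PDR18 and YMR317W all have their locus within that distance. In HPRT1R YAC replicate 1 it was 4 of 16 summits (25%), the lowest share.

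Genes grouped under carbon source use, mostly for growth on sources other than glucose, gave 31 peaks in 10 hosts. Of these hosts 7 were marked at the start in no library, against 32 of all 70 hosts. ACS1 (YAL054C, chromosome I, 42881 to 45022, strand C), the acetyl-CoA synthetase used for growth on acetate, had a gene-body peak in 7 libraries. Its fold was 2.41 and 2.2 in HPRT1 YAC, 2.38 and 2.21 in HPRT1 integrated, 2.27 in HPRT1R YAC replicate 2, and 2.44 and 2.44 in HPRT1R integrated. The 7 values were close, with a mean of 2.34 ± 0.108 (SD, n = 7), and HPRT1R YAC replicate 1 had no peak over the eligible bases of ACS1. The summits lay 1510 to 1772 bp from the start of this 2142 bp gene.

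JEN1 (YKL217W), the lactate and pyruvate permease, had a gene-body peak in the same 7 libraries at 1.59 ± 0.094 (SD, n = 7), and a native peak covered its locus in all 8. FOX2, an enzyme of peroxisomal fatty acid oxidation, followed with 5 libraries at 1.83 ± 0.080 (SD, n = 5), 4 integrated and 1 YAC. PCK1, the gluconeogenic phosphoenolpyruvate carboxykinase, had folds of 1.53 to 1.61 in 3 YAC libraries and no gene-body peak in an integrated one. ICL1, the isocitrate lyase of the glyoxylate cycle, passed the limit in the HPRT1R integrated pair alone, at 2.45 and 2.46, but peaks of all 8 libraries covered its locus, and those of the pair were 1273 and 1280 bp wide. The other hosts of this group were IDP3, TKL2, CYB2, ICL2 and MAE1, with 1 or 2 peaks each and folds of 1.38 to 1.71. Only MAE1, the mitochondrial malic enzyme, was marked at its start in all 8 libraries.

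Transporters outside the sugar transporter family, and not grouped under carbon or nitrogen source use, gave 21 peaks in 5 hosts. DTR1 (YBR180W, chromosome II, 589741 to 591459, strand W), which exports the dityrosine building block of the spore wall, was the transporter with a gene-body peak in all 8 libraries. Its fold was 1.68 and 1.97 in HPRT1 YAC, 2.15 and 1.95 in HPRT1 integrated, 1.76 and 2.14 in HPRT1R YAC, and 1.94 and 1.96 in HPRT1R integrated. The groups overlapped, and the mean of 1.94 ± 0.162 (SD, n = 8) stood for summits within 45 bp of each other, 1521 to 1566 bp from the start of a 1719 bp gene. QDR1, a drug exporter next in frequency, had folds of 1.61 to 2.1 in 6 libraries. It was marked at its start in all 8, and its peaks were 1119 to 1357 bp wide. PDR18 of the ABC transporters (5 libraries, 1.42 to 1.84), the sodium pump ENA1 (1 library, 2.37) and the sulfate permease SUL2 (1 library, 1.45) completed these.

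The hexose transporter family contributed GAL2, the galactose permease, in 5 libraries at 1.60 ± 0.106 (SD, n = 5), HXT8 in 4 libraries at 1.47 ± 0.057 (SD, n = 4), and HXT3 and HXT13 in 1 library each; these genes are alike in sequence, as is ENA1 to its neighbors, and their values are uncertain in the same way. Among genes of nitrogen use, UGA2 of GABA breakdown had a gene-body peak in 4 libraries at 1.46 to 1.80, with all summits at 1149 to 1151 bp from its start. PUT4, the proline permease, and GLT1, glutamate synthase, had one in 2 libraries each, and GDH2 in 1. GLT1 had the summits farthest from a host's start, 6201 and 6216 bp into a gene of 6438 bp, in the HPRT1 integrated pair, with folds of 1.73 and 1.80.

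The remaining 27 hosts gave 82 peaks and were not placed in a role group. YMR317W (chromosome XIII, 907364 to 910786, strand W), a frame whose product is not annotated in the table used, had a main locus in all 8 libraries. Its fold there was 1.93 ± 0.253 (SD, n = 8, lowest 1.52 in HPRT1R YAC replicate 1, highest 2.21 in HPRT1 YAC replicate 2), at 3181 to 3288 bp from the start. It also held a second locus in 2 libraries, 1037 to 1044 bp from the start, with a mean fold of 1.61. YMR317W and YRF1-1 were the hosts with 2 separate loci. TAF2, a subunit of TFIID, had a gene-body peak in 5 libraries at 1.72 ± 0.233 (SD, n = 5), and the fatty acid synthase subunit gene FAS2 in 3 libraries at 1.36 to 1.62, on average 96.7 bp from its end.

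Loci on either side of the 1000 bp limit were set side by side. Of the loci in all 8 libraries, the ones nearest the limit on the inside lay in MNN4, DTR1 and YMR317W, on average 1474, 1494 and 1515 bp from the nearest start of any gene. Just outside it, in genes with a peak in all 8 libraries, were PCD1 at 918 bp, PTI1 at 912 bp and BDS1 at 842 bp, with mean folds of 1.9, 2.03 and 2.04, close to the 1.98, 1.94 and 1.93 inside.

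Of 19 lists of long genes, 12 with 133 eligible genes had no gene-body peak in any library. These were motor proteins, PI3-kinase-related kinases, DNA polymerases, large RNA polymerase subunits, chromatin remodellers (a list that does not hold RSC30, described below), nuclear pore and spliceosome proteins, Ras regulators, large lipid transfer proteins, tRNA synthetases, cohesin and condensin, and genes with internal or antisense transcripts. That last list had 5 eligible genes. Of the lists with a host, the YRF1 list had 7 of 8 genes, the hyphenated long frames 7 of 29, the repeat-rich wall genes 3 of 15 (HPF1, FLO9 and FLO1), glucan and chitin synthases 1 of 6, lipid synthesis 1 of 6, P-type ATPases 1 of 15 and ABC transporters 1 of 26. Over all eligible genes the share with a gene-body peak was 2.52%, as given above. At that share, lists of this size hold few hosts or none, and the 12 were put together because they held none. An empty list is thus no result about its genes.

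YAC and integrated libraries were then compared, 4 against 4. Gene-body peaks made up 0.817% ± 0.291 of native summits in YAC libraries and 0.978% ± 0.168 in integrated ones (SD, n = 4 each). The difference of −0.161 percentage points (95% interval −0.677 to 0.373) was within the spread (exact two-sided permutation test, p = 0.4, adjusted 0.731 over 8 tests; smallest possible p 0.0286). Native peaks of any kind covered 1.05% ± 0.287 of eligible bases in YAC libraries and 1.2% ± 0.165 in integrated ones, against 22.8 to 26.0% of all native bases in the 8 libraries. This difference was also within the spread (exact permutation test, p = 0.429, adjusted 0.731). The within-library log2 ratio of folds differed by 0.06 (95% interval −0.10 to 0.25; exact permutation test, p = 0.457, adjusted 0.731) and that of widths by −0.16 (95% interval −0.66 to 0.39; exact permutation test, p = 0.4, adjusted 0.731). Without HPRT1R YAC replicate 1 or any other single library, these directions did not change and no adjusted p was under 0.343.

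HPRT1R and HPRT1 libraries did not differ beyond the spread either. The share of native summits was 0.880% ± 0.310 with HPRT1R and 0.915% ± 0.183 with HPRT1 (SD, n = 4 each), a difference of −0.0343 points (95% interval −0.711 to 0.350; exact permutation test, p = 0.743, adjusted 0.8). Without HPRT1R YAC replicate 1 the difference turned to 0.101, and without HPRT1 YAC replicate 1 to 0.0561. Without HPRT1 YAC replicate 2, whose labels conflict, it was −0.0718. Coverage of eligible bases differed by −0.0497 points (exact permutation test, p = 0.714, adjusted 0.8). The log2 ratio of folds differed by 0.09 (95% interval −0.02 to 0.25; exact permutation test, p = 0.171, adjusted 0.731) and that of widths by −0.04 (exact permutation test, p = 0.8, adjusted 0.8). Leaving out HPRT1R YAC replicate 1 and HPRT1 YAC replicate 2 in turn, the difference in coverage was 0.0797 and −0.0815 points, that in the log2 ratio of folds 0.05 and 0.11, and that in the log2 ratio of widths 0.03 and −0.07; no call changed.

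No eligible gene passed a gene-by-gene exact permutation test of gene-body peak presence after adjustment, 0 of 2781 in both comparisons (0%). None could pass, as the smallest p of 4 against 4 libraries is 0.0286 and only 70 genes held any gene-body peak. These counts of 0 are thus no result about the genes. At an unadjusted p under 0.05 there was 1 gene between YAC and integrated libraries (0.036%) and 0 between HPRT1R and HPRT1 (0%). The 1 gene was RSC30 (YHR056C, chromosome VIII, 215183 to 217834, strand C), a subunit of the RSC chromatin remodeller, with a gene-body peak in 4 of 4 YAC and 0 of 4 integrated libraries (exact permutation test, p = 0.0286, adjusted 1). Its folds were 1.25 and 1.48 in HPRT1 YAC and 1.59 and 1.39 in HPRT1R YAC, and 1.25 was the lowest of all gene-body peaks. The caller expected 1.94 to 2.40 times as many reads there as over most of the genome, more than at any other gene-body peak. Native peaks within 5 kb reached 1.80 to 2.02 times in the integrated libraries as well, but not at the same place. In the YAC libraries the peak with the highest expectation lay 5.25 to 80.8 bp from the mean RSC30 summit. In the integrated libraries it lay 1763 to 1830 bp from that position. The part of this raised expectation in the calls was not tested, nor whether reads there could also be placed elsewhere.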

How the data were processed

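The 8 H3K4me3 peak lists were analysed as deposited. The submitters' processing notes name MACS2 2.1.0, Bowtie2 2.2.9, SAMtools 1.9, bcl2fastq 2.20, deepTools 3.5.0 and the sacCer3 build. Caller settings, read filters and the caller's control were not given in the sources used here. Per peak, the deposited values were a fold (a ratio of pileup to expectation), p- and q-values as −log10, a score, and a summit offset. They were used to describe, rank and filter peaks within a list. Gene positions came from the RefSeq R64 table (6431 genes, 6002 protein-coding), with strand read from systematic names (1 gene had none).

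Where frames overlapped, the longest was the host (19 summits lay in 2 frames). At least 99.87% of native summits of each library could be solved for their pileup within 0.01 in −log10 p. Values were compared within libraries by exact sign-flip tests and between groups of 4 by exact permutation tests, in Python 3.11.15 with SciPy 1.17.1. Benjamini-Hochberg adjustment was over 5 and 8 tests, and over 2781 genes. Scripts were tested on simulated data. Alternatives were other distance limits (500 and 1500 bp), −log10 q of at least 5, equal peak numbers (3377 per list) and starts of coding genes only. Further ones were a replicate block, each library left out, and the hyphenated long frames, YRF1 genes and repeat-rich wall genes left out. No list repeated a row of another (0 identical rows).

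Members, lists and tests were chosen with earlier results of these data known. Named genes were the hosts in all 8 libraries, the hosts farthest from their start, genes at 4 of 4 against 0 of 4 libraries, the hosts with most loci, and the loci nearest the limit. All other hosts were named, and the role groups made, after their values were seen. The list of hyphenated long frames was built from names and lengths, since the table gives no products. FLO8 and SDC25 are not protein-coding in the table and were left out. No sequence is printed, as none of the files used holds one.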

Additional observations from a re-analysis of the deposited data

Results flagged for a closer look

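Of 42 sets of 4 to 8 samples tested, 7 held a sample far from the others, where chance gives about 1 in 20. That rate is for independent sets. These sets share the same 8 libraries and related measures, so 7 of 42 cannot be set against it. For the HPRT1 libraries, HPRT1 YAC replicate 1 lay apart in the share of native summits that are gene-body peaks (1.19%), in the coverage of eligible bases (1.42%) and in the log2 ratio of median widths (−0.23). HPRT1R YAC replicate 1 lay apart among the YAC libraries in the log2 ratio of median folds (−0.16), and among all 8 libraries in the log2 ratio of summit density (−5.70). It was also the low library for the fold at HPF1 (1.99) and at YIL082W-A (1.75).

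Outside the nuclear chromosomes the 8 lists held 195 peaks on the mitochondrial genome, 15 to 37 per library, with median folds of 2.19 to 3.82 and a highest fold of 8.96. No control sample was analysed beside them, and mitochondrial DNA carries no histones.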

How the results depend on the processing

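Density, fold and width of gene-body peaks kept their direction and their call under every alternative run for them. With the limit at 500 bp there were 1374 gene-body peaks (share 4.52% of native summits), the difference in start marking was −3.69 points, and the differences in share turned to 0.344 (YAC minus integrated) and 0.475 (HPRT1R minus HPRT1). At 1500 bp there were 127 (share 0.418%), and with equal numbers of peaks 174 (0.644%). Without the hyphenated long frames, YRF1 genes and repeat-rich wall genes there were 170 (0.558%). Other repeated frames near chromosome ends, such as YIL177C and YJL225C, stayed in. The HPRT1R minus HPRT1 log2 width ratio turned to 0.11 at 500 bp, 0.17 at 1500 bp, 0.10 at −log10 q of at least 5 and 0.12 with equal numbers. The replicate overlap lost its call at 1500 bp (−11.6 points, exact sign-flip test, p = 0.0547) and among low folds only (−10.1 points). Counting any peak, 19 loci were in all 8 libraries. The cause of these shifts was not tested.

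With 1 library left out, replicate overlap ranged from −14.9 to −11.4 points and lost its call each time, since the partner then has no replicate. HPRT1R minus HPRT1 ranged from −0.125 to 0.101 for the share (0.0561 without HPRT1 YAC replicate 1, 0.101 without HPRT1R YAC replicate 1), −0.150 to 0.0797 for coverage and −0.15 to 0.069 for the width ratio.

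With the replicate number as a block, differences stayed the same, for example −0.161 for the YAC share (exact permutation test, p = 0.389, adjusted 0.889), and no call changed. The deviations of same-numbered libraries correlated with r of −0.209 to 0.0532 over 2702 regions. Such values cannot tell whether same-numbered libraries shared a culture day or a run.

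Depth limits which low peaks were called: folds under about 1.25 do not occur among gene-body peaks, and where a list has no peak the level is unknown.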

Other observations

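When any native peak over the eligible bases of a gene was counted, 169 of 2781 genes (6.08%) had one in at least 1 library and 57 (2.05%) in all 8. With this count, 4 genes had a peak in all libraries of one configuration and none of the other (exact permutation test, p = 0.0286 and adjusted 1 for each). LEU2, the leucine synthesis gene whose product the SC-Leu medium requires, and RSC30 had one in 4 of 4 YAC and 0 of 4 integrated libraries. BY4741 is known as a strain with a leu2 deletion, so that for LEU2 a missing gene and a missing mark cannot be told apart in the integrated libraries. Whether the LEU2 peaks of the YAC libraries come from the native locus or from an introduced copy of the gene was not tested. The LEU2 count is thus no result about the mark at the native gene. EPL1, a subunit of the NuA4 acetyltransferase, and VIP1, an inositol pyrophosphate kinase, had a peak in 0 of 4 YAC and 4 of 4 integrated libraries. Between HPRT1R and HPRT1 libraries 0 genes did so.

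Of 33 gene-body loci within 500 bp of the end of their host, 16 (48.5%) had a neighbor whose end faces that of the host, against 61.2% of all 2781 eligible genes. An eligible gene counts here whether or not its eligible bases lie near its end, so the shares are not like for like. Hosts with such a locus include kinases, transporters and metabolic enzymes, for example HOG1 in 1 library, ACS1 in 7 and DTR1 in 8.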
